A study of Mus musculus with 8 samples.

Results

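Adhesion G protein-coupled receptors were described across the cell populations of mouse skeletal muscle. The family was taken as every row of the deposited gene table whose symbol begins with Adgr, followed by 1 of the subfamily letters a to g, l or v and a digit. This gave 26 of 36048 genes, spread over 8 subfamilies, and no measured value entered the choice. The groups were 3 libraries of endothelial cells (EC), which line the vessels, 2 of satellite cells (SC, numbered 1 and 3), the resident stem cells of muscle, and 3 of single muscle fibres (SMF), the contractile cells. EC and SC were flow-sorted from the muscles of the hind limb, about 100000 cells to a library. Each SMF library was made from 100 hand-picked fibres of the extensor digitorum longus, collected 3 h after isolation. No group carried a transgene or received a treatment that the labels name, and their texts as used here name no strain, age or sex. Muscle of origin and isolation differed together with the population and cannot be told apart from it. Whether replicates were separate animals is not in the labels. All p-values therefore cover the spread between these libraries alone, part of which may be technical.

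Adhesion receptors join a long extracellular region, which binds matrix proteins or molecules on neighbouring cells, to the membrane-spanning core of a G protein-coupled receptor. Most of them cut themselves at a site just outside the membrane, and the freed stretch next to the cut can act as a tethered agonist that starts G protein signalling. In muscle tissue Adgrf5 (GPR116) and Adgrl4 (ELTD1) are known from vessel endothelium, Adgrg6 (GPR126) from the Schwann cells of nerve, and Adgre5 (CD97) from blood cells and other cells that meet its ligand CD55.

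Values are FPKM, in which fragments are scaled both by transcript length and by library size, so levels of different genes are given per length. The length used for each gene is not stated, and the order of some members differs in the deposited TPM table. The ratio of transcript coverage to FPKM corresponded to 277.9 to 367.8 Mb of aligned bases for the sorted cells and to 525.5 to 580.8 Mb for the fibres. A single fragment on 1 kb of transcript was worth 0.272 to 0.36 FPKM in sorted cells and 0.172 to 0.19 FPKM in fibres. The 4 endothelial markers (Cdh5, Pecam1, Kdr, Tek) summed to 903.2 to 931.4 FPKM in EC, to 16.36 and 21.52 in SC and to at most 2.937 in SMF, and the satellite cell and fibre markers were likewise highest in their own groups. EC replicate 2 stood apart from the other EC libraries: its 5 pericyte markers summed to 168.5 FPKM against 469.6 and 558.7, and its 8 leukocyte markers to 13.69 against 63.87 and 87.19. Genes above 0 numbered 23383 in SC replicate 1 and 30187 in SC replicate 3. The labels state that the RNA of 1 library, left unnamed, was below the quality threshold.

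The family was expressed most in endothelial cells. Its 26 genes summed to 581.0, 589.7 and 581.5 FPKM in the EC libraries, to 52.65 and 62.88 in the SC libraries and to 4.935, 6.297 and 6.564 in the SMF libraries. The groups did not overlap in this sum. A mean of at least 1 FPKM was reached by 10 members in EC, 6 in SC and 3 in SMF, and a mean of at least 5 FPKM by 5, 3 and 0 members. The make-up of the sum differed as well. Adgrf5 held 60.3 to 64.1% of it in EC, Adgrl4 20.0 to 21.9% and Adgrg1 9.70 to 10.1%. In SC the leading members were Adgre5 with 35.6 and 39.8%, Adgra3 with 22.4 and 22.5%, and Adgra2 with 17.3 and 21.7%. In SMF the leading member by mean was Adgrl1, at 19.8 to 35.7%. In bulk RNA of this kind, fewer cells of a type and less RNA per cell cannot be told apart.

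**Figure D1:**
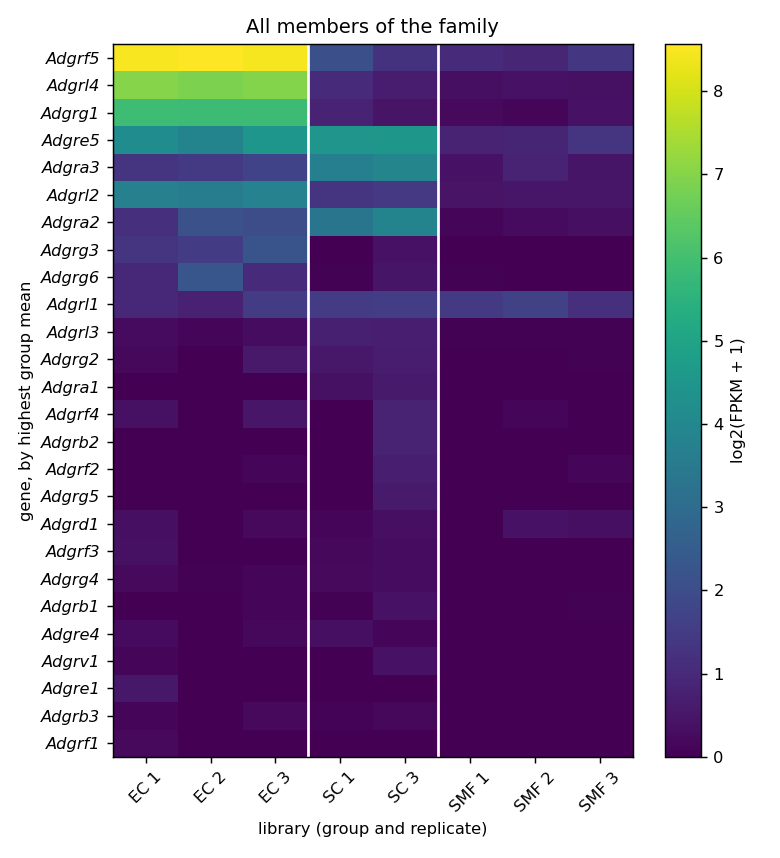
Level of all 26 family members (rows, ordered by highest group mean) in each of the 8 libraries (columns), as log2(FPKM + 1) by colour. The top rows are bright in the 3 EC libraries, Adgre5, Adgra3 and Adgra2 are brightest in the SC libraries, and most lower rows are dark throughout.

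Genes that reached 1 FPKM in 2 or more libraries entered the test, 16700 in all, with limma on log2(FPKM + 1). A gene was called where its p, adjusted by Benjamini and Hochberg's method over these genes, lay under 0.05. This filter left 10 members, and it favoured a call for a member that passed only through the group where it is high. Adgrg1, Adgrg3 and Adgrg6 reached 1 FPKM in EC libraries only, and Adgrl4 elsewhere only in SC replicate 1. These members passed through EC, so their calls as higher in EC are no independent support. Between SC and EC, 8 tested members were called, 2 of them higher in SC and 6 in EC. Among all tested genes 37.7% were called, with 21.2% higher in SC and 16.4% in EC. Between SC and SMF, 5 were called higher in SC and 0 in SMF, where 65.1% of all tested genes were called, 56.5% higher in SC and 8.57% higher in SMF. Between EC and SMF, 9 were called higher in EC and 0 in SMF, where 66.3% of all tested genes were called, 55.5% higher in EC and 10.8% higher in SMF. For both comparisons with SMF, the count of members higher in SMF was also 0 at an unadjusted p under 0.05 in limma, and 1 under median-of-ratios scaling. FPKM are relative to all fragments of a library, and the median tested gene itself lay 0.93 log2 units higher in SC than in SMF and 0.85 higher in EC than in SMF. Median-of-ratios scaling brought these shifts to 0.21 and 0.20, and with it the share of calls that were higher in the first group went from 86.8 to 55.1% for SC against SMF and from 83.7 to 56.5% for EC against SMF. Scaling that left out each group's 50 most abundant genes (abundant-gene-free) moved the share between SC and EC from 56.3 to 39.0% higher in SC.

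**Figure D2:**
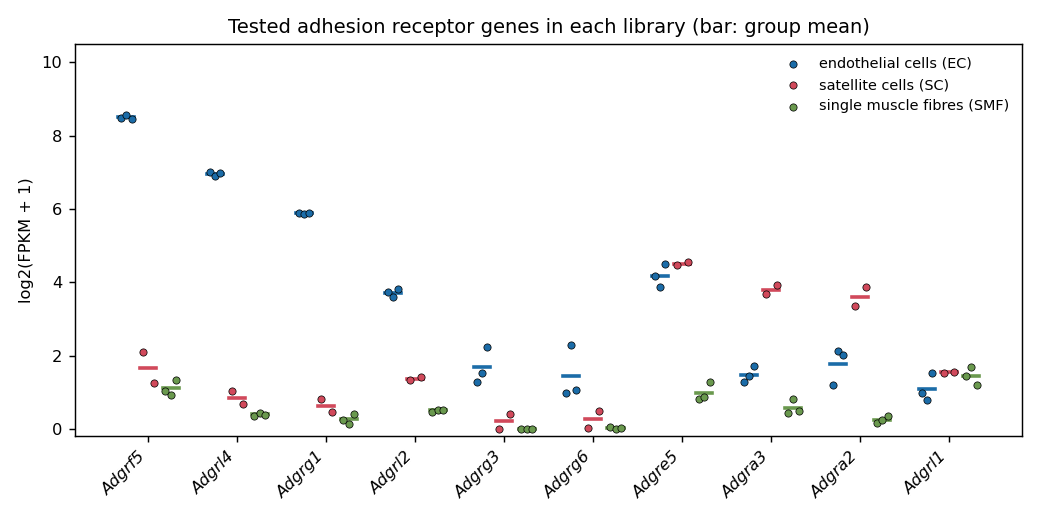
Level of the 10 tested members in each library as log2(FPKM + 1), with a point for each library and a bar at the group mean. Adgrf5, Adgrl4, Adgrg1 and Adgrl2 are highest in EC, Adgra3 and Adgra2 in SC, Adgre5 is high in both, and the SMF points of Adgrl1 overlap those of both other groups.

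**Figure D3:**
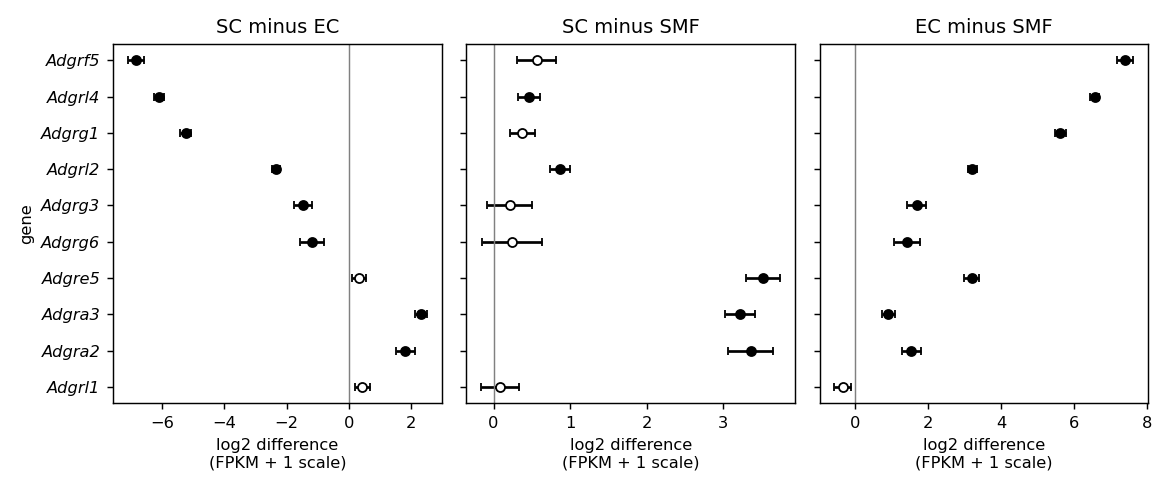
Difference between group means for the 10 tested members on the log2(FPKM + 1) scale, 1 panel for each comparison, with bars of 1 standard error. Filled points were called at an adjusted p under 0.05: 8 for SC against EC, 5 for SC against SMF and 9 for EC against SMF.

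Adgrf5, a receptor best known for its part in surfactant balance of the lung and also made by vessels, was the most abundant member in EC. Its level was 357, 378 and 351 FPKM in the EC libraries, 3.27 and 1.36 in SC and 1.06, 0.900 and 1.54 in SMF. The EC libraries lay far above all others, and SC replicate 3 lay within the range of the fibres. Adgrf5 was lower in SC than in EC by a log2 difference of -6.84 (SE 0.26, limma adjusted p = 1.59e-06) and higher in EC than in SMF by 7.40 (SE 0.23, adjusted p = 1.96e-07). Between SC and SMF the difference of 0.56 (SE 0.26) was not called (adjusted p = 0.0898), and it turned to -0.40 under median-of-ratios scaling. By mean level Adgrf5 ranked 143 among all genes of the EC libraries. The gene lies on chromosome 17, from 43360329 to 43459557 in RefSeq on GRCm38.p6 (mm10).

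Adgrl4, an orphan receptor of endothelium, followed with 127, 118 and 124 FPKM in EC, 1.03 and 0.611 in SC and 0.288, 0.351 and 0.304 in SMF. No group overlapped another. It was lower in SC than in EC by a log2 difference of -6.10 (SE 0.15, limma adjusted p = 6.76e-07) and higher in EC than in SMF by 6.56 (SE 0.13, adjusted p = 7.71e-08). The smaller difference between SC and SMF, 0.46 (SE 0.15), was called at an adjusted p of 0.0253 and was not called under 9 of 18 alternatives. These included all 3 other scalings, the replicate block, the TPM table and leaving out SC replicate 1 or any 1 SMF library. Adgrl4 lies on chromosome 3, from 151437882 to 151545081. Of the transcripts listed for it, a full-length one took 67.2, 86.5 and 86.4% of the bases in EC and 100% in SC and SMF, with 5 short transcripts making up the rest.

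The low levels of Adgrf5 and Adgrl4 outside EC were set beside those of the 4 endothelial markers. Relative to the EC mean, Adgrf5 stood at 0.903 and 0.376% in the SC libraries and Adgrl4 at 0.836 and 0.497%, while the markers spread widely: Cdh5, the cadherin of endothelial junctions, stood at 0.840 and 0.328%, Pecam1 at 2.05 and 1.23%, Kdr at 0.390 and 0.170% and Tek at 12.8 and 12.1%. In SMF the ranges were 0.249 to 0.426% for Adgrf5, 0.234 to 0.285% for Adgrl4, 0.211 to 0.374% for Cdh5, 0.407 to 0.524% for Pecam1, 0.0518 to 0.109% for Kdr and 0.0727 to 0.608% for Tek. In SC, replicate 1 was the higher library for both receptors and all 4 markers. The part of endothelial RNA in the SC and SMF values was not tested.

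The 250 bases upstream of a RefSeq start of Adgrf5 (43360431, inside the gene span) and of Adgrl4 (151437882) are shown because these are the most abundant endothelial members, and capitals mark the ETS core AGGAAG (or CTTCCT on the other strand), a motif bound by a factor family with members that act in endothelium. The windows are chr17:43360181-43360430 and chr3:151437632-151437881, both on the plus strand of GRCm38.p6.
Adgrf5: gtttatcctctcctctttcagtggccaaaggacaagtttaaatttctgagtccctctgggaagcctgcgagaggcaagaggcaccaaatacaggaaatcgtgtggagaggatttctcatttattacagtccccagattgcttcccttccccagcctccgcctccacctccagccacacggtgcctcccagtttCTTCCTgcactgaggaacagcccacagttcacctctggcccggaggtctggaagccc
Adgrl4: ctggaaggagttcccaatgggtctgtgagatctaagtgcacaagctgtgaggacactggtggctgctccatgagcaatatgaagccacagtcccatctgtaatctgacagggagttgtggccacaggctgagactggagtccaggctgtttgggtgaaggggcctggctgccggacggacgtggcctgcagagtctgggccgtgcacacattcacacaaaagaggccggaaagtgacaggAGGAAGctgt
Counted from the start site, the motif spanned positions -57 to -52 in Adgrf5 and -10 to -5 in Adgrl4. It was found in 7 of 23 windows of family members (30.4%), against 29.5% of the 32851 promoter windows in the table. The second Adgrf5 window of the table held none. The other motifs searched on both strands were the E-box CAGCTG (3 of 23 windows, 13.0% of all windows), the GATA core AGATAA (1 of 23, 9.99%) and the TATA box TATAAA (2 of 23, 12.4%). A match is a run of letters and not a measured binding site.

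Adgrg1 (GPR56) binds collagen III and transglutaminase and signals mainly through the G12 and G13 proteins. Its level was 58.6, 57.2 and 58.1 FPKM in EC, 0.760 and 0.371 in SC and 0.175, 0.0899 and 0.336 in SMF. The EC libraries differed little among themselves (58.0 ± 0.741 FPKM, SD, n = 3), and both SC libraries lay above the fibres. Adgrg1 was lower in SC than in EC by a log2 difference of -5.25 (SE 0.16, limma adjusted p = 7.83e-07) and higher in EC than in SMF by 5.62 (SE 0.15, adjusted p = 1.12e-07). The SC to SMF difference of 0.38 (SE 0.16) was not called (adjusted p = 0.0753). It was called with a pseudocount of 0.1 (1.17, adjusted p = 0.0322) and without SC replicate 3 (0.56, adjusted p = 0.0283).

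The transcript table assigned Adgrg1 to transcripts with different start sites in the populations. Of its 2 listed transcripts, the one that begins at chromosome 8, 94984399 took 100% of the bases in each EC library, on 1439, 1625 and 1338 read equivalents (the bases on a transcript divided by the read length of 50). The other, which begins 7290 bp upstream at 94977109, took 100% in each SC and SMF library. That rested on only 18.4 and 7.96 read equivalents in SC and on 7.84, 3.96 and 13.7 in SMF. The whole of a library was thus given to 1 transcript in every case. These shares were not tested, since the 2 transcripts overlap and few read equivalents were divided between them in SC and SMF. Read equivalents cover a whole transcript and not its start. The table lists 89871 of transcript numbers that run to 115219, but for Adgrg1 the listed transcripts made up the gene value. The gene spans 94974756 to 95014208.

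The windows upstream of the 2 starts are printed for this reason, at chr8:94976859-94977108 (start assigned in SC and SMF) and chr8:94984149-94984398 (start assigned in EC), plus strand. They hold none of the 4 motifs, hence no capitals.
Adgrg1 upstream start: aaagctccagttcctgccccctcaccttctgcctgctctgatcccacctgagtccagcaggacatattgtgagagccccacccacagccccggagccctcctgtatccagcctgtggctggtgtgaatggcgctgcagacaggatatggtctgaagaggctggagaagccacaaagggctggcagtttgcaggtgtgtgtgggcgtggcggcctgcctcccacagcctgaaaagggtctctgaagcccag
Adgrg1 downstream start: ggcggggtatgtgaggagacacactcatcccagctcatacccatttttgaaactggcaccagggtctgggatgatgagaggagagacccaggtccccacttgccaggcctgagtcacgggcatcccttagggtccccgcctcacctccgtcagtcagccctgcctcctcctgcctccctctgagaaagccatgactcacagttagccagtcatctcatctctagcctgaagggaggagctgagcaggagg
Their GC content was alike at 60.8 and 59.2%, above the median window at 52.4%.

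**Figure D4:**
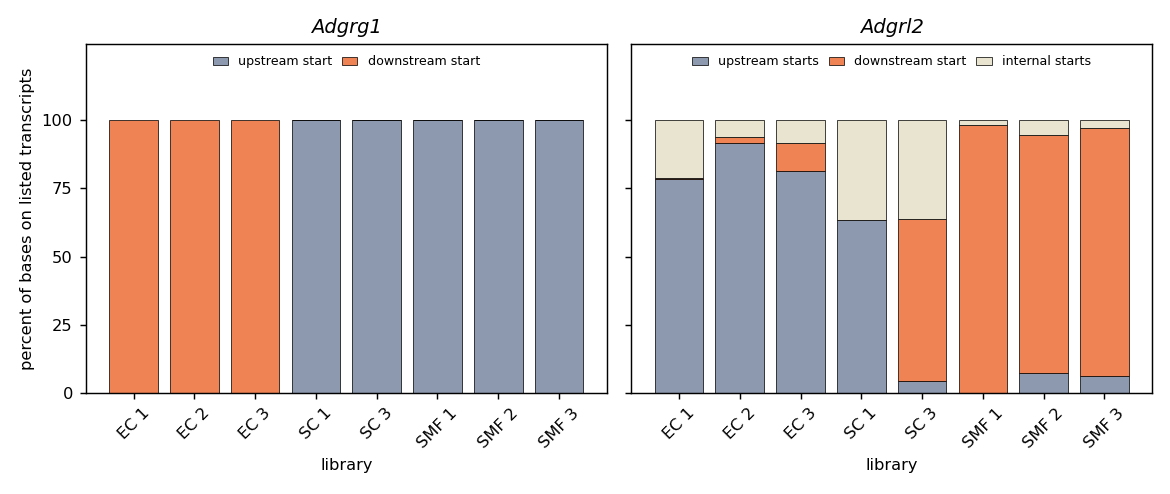
Percent of the bases on listed transcripts that fell to each class of start site, for Adgrg1 (left) and Adgrl2 (right), by library. Bases are counted over whole transcripts. Adgrg1 was assigned to the downstream start in EC and to the upstream start in SC and SMF. Adgrl2 was assigned mostly to upstream starts in EC and to the downstream start in SMF, with the SC libraries split.

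Adgrl2, a latrophilin that binds teneurins and FLRT proteins, was an EC gene at a lower level. It stood at 12.3, 11.1 and 13.0 FPKM in EC, 1.52 and 1.65 in SC and 0.381, 0.443 and 0.430 in SMF. The 3 groups did not overlap. It was lower in SC than in EC by a log2 difference of -2.34 (SE 0.13, limma adjusted p = 9.84e-06) and higher in EC than in SMF by 3.21 (SE 0.12, adjusted p = 3.93e-07). The SC to SMF difference was 0.87 (SE 0.13, adjusted p = 0.000785), but it was 0.16, 0.32 and 0.39 and was not called under the 3 other scalings. Relative to the EC mean, Adgrl2 stood at 12.5 and 13.6% in SC, where the 4 endothelial markers ran from 0.170% (Kdr) to 12.8% (Tek).

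The assigned start sites of Adgrl2 also differed between EC and SMF, again by bases over whole transcripts. The gene lies on the minus strand of chromosome 3, from 148815586 to 148989096, with 19 listed transcripts, of which 11 were above 0. Transcripts with starts at the upstream end of the gene took 78.3, 91.6 and 81.6% of the bases in EC, and 0, 7.49 and 6.08% in SMF. Transcripts from a pair of starts further downstream, at 148954787 and at 148954635, took 98.4, 87.3 and 91.0% in SMF, against 0.707, 2.34 and 10.1% in EC. The start at 148954635 lies 35920 bp from the most upstream start. In EC replicate 1 this share lay on the first of the pair, and in every other library with a share on the second. The groups did not overlap for either class. The SC libraries disagreed with each other, since the upstream starts took 63.6% in replicate 1 and 4.52% in replicate 3, and the downstream starts 0 and 59.1%. Read equivalents on transcripts with the downstream starts were 61.8, 62.6 and 58.4 in SMF and 7.87, 26.5 and 110.4 in EC. EC replicate 3 thus had more on them than any fibre library. Transcripts with starts inside the gene took 21.0, 6.02 and 8.31% in EC, 36.4 and 36.3% in SC and 1.56, 5.23 and 2.96% in SMF. The shares were not tested. That listed transcripts made up the gene value, as for Adgrg1, was not met for Adgrl2.

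The window before the start at 148954635 is shown because most fibre bases were assigned to the transcript that begins there. It lies at chr3:148954636-148954885 and is printed along the minus strand, with an ETS core (positions -232 to -227 from the start) and the reverse of TATAAA (-53 to -48) in capitals.
Adgrl2 downstream start: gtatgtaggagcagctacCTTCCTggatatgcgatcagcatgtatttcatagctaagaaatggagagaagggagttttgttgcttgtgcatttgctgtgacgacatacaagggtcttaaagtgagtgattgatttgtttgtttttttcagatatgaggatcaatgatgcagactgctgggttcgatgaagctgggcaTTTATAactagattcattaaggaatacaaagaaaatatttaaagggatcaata
Its GC content was 37.6% with 3 CpG, against medians of 52.4% and 6 over all windows.

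Adgrg3 (GPR97), known from granulocytes and a neighbour of Adgrg1 on chromosome 8 (95017113 to 95045250), was low but called. It passed the filter through EC alone, which favoured its calls as higher in EC. It stood at 1.44, 1.88 and 3.67 FPKM in EC, and at 0 and 0.336 in SC. All 3 SMF libraries list it at 0. The EC libraries lay above all others, while SC replicate 1 and the fibres shared the value 0. Adgrg3 was lower in SC than in EC (log2 difference -1.47, SE 0.29, limma adjusted p = 0.00568) and higher in EC than in SMF (adjusted p = 0.000708). Its highest library, EC replicate 3, also had the highest sum of leukocyte markers, whereas EC replicate 2 had more Adgrg3 than EC replicate 1 with less of those markers (13.69 against 63.87 FPKM). Their part in the value was not tested.

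Adgrg6 binds collagen IV and laminin and drives myelination in Schwann cells. Among tested members it had the widest spread in EC relative to its mean (1.99 ± 1.68 FPKM, SD, n = 3). It passed the filter through EC alone, which favoured its calls as higher in EC. It stood at 0.970, 3.93 and 1.07 FPKM in EC, 0.0260 and 0.402 in SC and 0.0290, 0 and 0.0150 in SMF. EC replicate 2, the EC library with the lowest sums of pericyte and leukocyte markers, was the high one, and the EC libraries lay above all others. Adgrg6 was higher in EC than in SMF (log2 difference 1.42, SE 0.35, limma adjusted p = 0.00811, and 0.99, adjusted p = 0.00301 without EC replicate 2). The SC to EC difference of -1.18 (SE 0.40) passed at an adjusted p of 0.0494 and was not called under 11 of 17 alternatives. It was -0.75 (adjusted p = 0.0264) without EC replicate 2, -1.41 (adjusted p = 0.0993) without SC replicate 3 and -0.96 (adjusted p = 0.224) without SC replicate 1. The 5 Schwann cell markers were highest in SC (7.486 and 8.004 FPKM) and lay between 1.205 and 1.707 in EC, which is not the order of Adgrg6.

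Adgra3 (GPR125), an orphan receptor tied to planar polarity and Wnt signalling, was a satellite cell gene. Its level was 11.8 and 14.1 FPKM in SC, 1.42, 1.71 and 2.31 in EC and 0.352, 0.764 and 0.399 in SMF. Both SC libraries exceeded every other library. Adgra3 was higher in SC than in EC by a log2 difference of 2.32 (SE 0.20, limma adjusted p = 8.09e-05) and higher in SC than in SMF by 3.22 (SE 0.20, adjusted p = 8.73e-06). EC exceeded SMF by 0.90 (SE 0.18, adjusted p = 0.00251), which was 0.24 (adjusted p = 0.308) under median-of-ratios and 0.31 (adjusted p = 0.189) under upper-quartile scaling. The gene lies on chromosome 5, from 49959951 to 50058996.

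Adgra2 (GPR124), the receptor that works with the anchored protein RECK to pass on the Wnt7 signal in brain vessels, followed the same order. It stood at 9.13 and 13.6 FPKM in SC, 1.30, 3.40 and 3.02 in EC and 0.117, 0.193 and 0.265 in SMF, with no overlap between groups. Adgra2 was higher in SC than in EC by a log2 difference of 1.82 (SE 0.30, limma adjusted p = 0.00229), higher in SC than in SMF by 3.35 (SE 0.30, adjusted p = 4.43e-05) and higher in EC than in SMF by 1.53 (SE 0.27, adjusted p = 0.00131). The 5 fibro-adipogenic markers, from another cell type of the hind limb, summed to 137.2 and 147.9 FPKM in SC and to 118.6 to 169.9 in EC, but they did not move together. Dpt was at 103 and 95.5 FPKM in SC and at most 4.17 in EC (adjusted p = 0.00125, higher in SC), and Ly6a at 1.65 and 1.09 in SC and 94.5 to 116 in EC (adjusted p = 3.36e-06, lower in SC), with the other 3 not called. The part of such cells in the levels of Adgra2 and Adgra3 was not tested. Assignment of the listed transcripts of Adgra2 varied within EC: a 16-exon form took 100, 0 and 0% of the bases in EC and 83.2 and 77.9% in SC, and a 19-exon form the rest. In SMF the 19-exon form took 100% in each library, on 7.82 to 16.1 read equivalents. Adgra2 lies on chromosome 8, from 27085520 to 27123436.

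Adgre5 was the member shared by both sorted populations. Its level was 17.1, 13.6 and 21.5 FPKM in EC, 21.0 and 22.4 in SC and 0.746, 0.839 and 1.43 in SMF. EC replicate 3 lay between the SC libraries, and all 5 sorted libraries exceeded the fibres. Adgre5 was higher than in SMF by a log2 difference of 3.52 in SC (SE 0.23, limma adjusted p = 1.05e-05) and of 3.19 in EC (SE 0.20, adjusted p = 4.87e-06). The SC to EC difference, 0.32 (SE 0.23), was not called (adjusted p = 0.31). Within EC, the order of the libraries for Adgre5 was that of the leukocyte markers, which summed to 31.06 and 36.96 FPKM in SC. Ptprc, the marker that defines leukocytes, was at 0.78, 0.03 and 1.07 FPKM in EC and 0.143 and 0.432 in SC. The part of leukocytes in the level of Adgre5 was not tested. The gene lies on chromosome 8, from 83723245 to 83741311.

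Adgrl1, a latrophilin like Adgrl2, was the most abundant member in fibres by mean and the only tested member not called in any comparison. It stood at 1.74, 2.25 and 1.30 FPKM in SMF, 0.977, 0.731 and 1.87 in EC and 1.88 and 1.94 in SC. The SMF range overlapped both others, and the highest EC library lay just below the SC libraries. The log2 differences were 0.44 for SC against EC (limma adjusted p = 0.207), 0.09 for SC against SMF (adjusted p = 0.77) and -0.35 for EC against SMF (adjusted p = 0.193). The call depended on the scaling: relative to SMF, EC was at -1.25, -1.13 and -0.80 under median-of-ratios, upper-quartile and abundant-gene-free scaling, with adjusted p of 0.00148, 0.0024 and 0.0188. SC was then at -0.96 (adjusted p = 0.0111), -0.74 (0.0302) and -0.59 (0.0954). Adgrl1 lies on chromosome 8, from 83900098 to 83941954. Other fibre levels near 1 FPKM were those of Adgrf5 (1.17 ± 0.334, SD, n = 3) and Adgre5 (1.00 ± 0.371, SD, n = 3), which overlapped each other and, at 1.54 and 1.43 FPKM in their highest library, the lowest Adgrl1 value.

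The remaining 16 members were under 1 FPKM in every library and were not tested. They were Adgra1, Adgrb1, Adgrb2, Adgrb3, Adgrd1, Adgre1, Adgre4, Adgrf1, Adgrf2, Adgrf3, Adgrf4, Adgrg2, Adgrg4, Adgrg5, Adgrl3 and Adgrv1, and 8 of them were listed at 0 in all 3 SMF libraries. The highest single value was 0.809 FPKM, for Adgrf4 in SC replicate 3. That library held the highest value of 9 of the 16 and had 14 of them above 0, against 9 in SC replicate 1, 11, 2 and 9 in the EC libraries and 1 to 7 in the SMF libraries. Adgrl3, the third latrophilin, was at 0.678 and 0.630 FPKM in SC, 0.0905 to 0.215 in EC and at most 0.0401 in SMF. Adgra1 was above 0 in SC only (0.293 and 0.529 FPKM). When all 36048 genes were fitted without a filter, Adgrl3 was called higher in SC than in EC (log2 difference 0.51, adjusted p = 0.0299) and than in SMF (0.68, adjusted p = 0.00445). In that fit Adgra1 was called higher in SC than in EC and in SMF (adjusted p = 0.0139 and 0.00722). Adgrg2 was called there for SC against SMF only (adjusted p = 0.0404), at 0.470 and 0.566 FPKM in SC, 0.130, 0 and 0.494 in EC and 0, 0 and 0.0388 in SMF.

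Some of these members were above 0 in a single library of the gene table. Adgre1, which codes for a macrophage surface antigen, was above 0 in EC replicate 1 only, at 0.475 FPKM. Adgrg5 was above 0 in SC replicate 3 only, at 0.537 FPKM. Adgrb2, one of the brain angiogenesis inhibitors, was at 0.779 FPKM in SC replicate 3 and 0 elsewhere in the gene table, but a transcript of it is listed at 0.0973 FPKM in SC replicate 1. Adgrd1, an orphan receptor, was at 0, 0.350 and 0.289 FPKM in SMF and at most 0.279 elsewhere. The 3 Celsr genes, which form subfamily C under another name and guide planar polarity, did not pass the filter. Celsr2 was highest in SC at 0.822 and 0.956 FPKM, and Celsr1 in EC at 0.306, 1.21 and 0.284, with EC replicate 2 the high library.

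Among the known ligands and partners of the family, a list of 30 genes of which 28 were in the table and 16 were tested, 7 were called higher in SC than in EC and 6 higher in EC, where the shares over all tested genes were 21.2% and 16.4%. The 6 became 3 when any 1 of EC replicates 1 and 3 and SC replicates 1 and 3 was left out. Their median log2 difference was -0.07, against 0.11 for all tested genes. Relative to SMF, 13 were higher in SC and 2 lower (all tested genes, 56.5% and 8.57%), and 10 were higher in EC and 2 lower (55.5% and 10.8%). The 2 lower in SC, Cd55 and Prnp, became 0 without SC replicate 3, and 1 without SC replicate 1, SMF replicate 2 or SMF replicate 3. Other scalings turned some of these: under median-of-ratios scaling 12 were higher and 3 lower in SC, and 7 higher and 4 lower in EC. All tested genes called under that scaling numbered 4583 of 16700 higher and 3735 lower in SC, and 5356 higher and 4116 lower in EC.

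Of the tested latrophilin ligands, Flrt1, Tenm3 and Tenm4 were called higher in SC than in EC and Flrt2 was not called. Flrt1 was at 20.0 and 14.9 FPKM in SC and at most 1.14 elsewhere (SC to EC log2 difference 4.02, SE 0.16, limma adjusted p = 2.11e-06). Tenm4 was at 12.0 and 12.3 FPKM in SC and at most 0.119 elsewhere (3.58, SE 0.14, adjusted p = 1.81e-06), and Tenm3 at 5.11 and 7.01 against at most 0.969 (2.76, SE 0.17, adjusted p = 1.24e-05). Flrt2 averaged 2.36 ± 1.37 FPKM in EC (n = 3) and 2.05 ± 0.246 in SC (SD, n = 2; -0.06, adjusted p = 0.916).

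Ligands of the G subfamily were divided. Tgm2, the transglutaminase that binds Adgrg1, was an EC gene like its receptor, at 80.8, 141 and 87.0 FPKM in EC against 7.01 and 3.76 in SC (log2 difference -4.03, SE 0.31, limma adjusted p = 4.87e-05). Col3a1, which codes for the other Adgrg1 ligand, was instead higher in SC, at 108 and 113 FPKM against 21.1, 2.43 and 25.6 in EC (3.14, SE 0.85, adjusted p = 0.0221), with EC replicate 2 the low library. Col4a1, a basement membrane collagen and Adgrg6 ligand, was at 269, 134 and 280 FPKM in EC, 88.3 and 96.9 in SC and 0.889 to 1.72 in SMF (SC to EC -1.22, SE 0.34, adjusted p = 0.024). Col4a2 went the same way as Col4a1 (SC to EC -2.04, SE 0.36, adjusted p = 0.00338). Prnp, whose protein binds Adgrg6, was at 24.6 ± 3.05 FPKM in EC (n = 3), 7.74 ± 0.983 in SC (n = 2) and 11.9 ± 0.595 in SMF (SD, n = 3), and was lower in SC than in both (-1.55, adjusted p = 0.000211, and -0.56, adjusted p = 0.015). Lama2, the laminin chain of muscle basement membrane, was at 41.0 and 42.6 FPKM in SC and at most 1.58 elsewhere (4.66, SE 0.30, adjusted p = 1.97e-05).

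Partners of Adgre5 and Adgra2 had patterns of their own. Cd55, the Adgre5 ligand, was at 7.21, 9.17 and 8.54 FPKM in SMF and 3.26 and 1.79 in SC (log2 difference SC against SMF -1.43, SE 0.45, limma adjusted p = 0.0231), and spread from 2.73 to 10.7 in EC. Its order of SC and SMF was opposite to that of Adgre5. Thy1, another Adgre5 partner, was higher in EC than in SC at 9.55 ± 0.737 (n = 3) against 6.02 ± 0.326 FPKM (SD, n = 2; -0.59, adjusted p = 0.0474). Reck was at 2.64 and 2.48 FPKM in SC, 1.52, 1.23 and 1.83 in EC and 0.160 to 0.276 in SMF, and was higher in SC than in EC (0.50, SE 0.16, adjusted p = 0.043), the same order as Adgra2. Cd81, a tetraspanin that binds Adgrg1 together with Cd9, was higher in EC at 56.6 ± 16.0 against 30.1 ± 5.59 FPKM in SC (-0.86, adjusted p = 0.0377), while Cd9 was not called (-0.08, adjusted p = 0.886). Of the Wnt7 ligands of Adgra2 and Reck, Wnt7b was above 0 in SC only, at 0.40 and 0.25 FPKM, and Wnt7a in SC replicate 3 only, at 0.11.

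**Figure D5:**
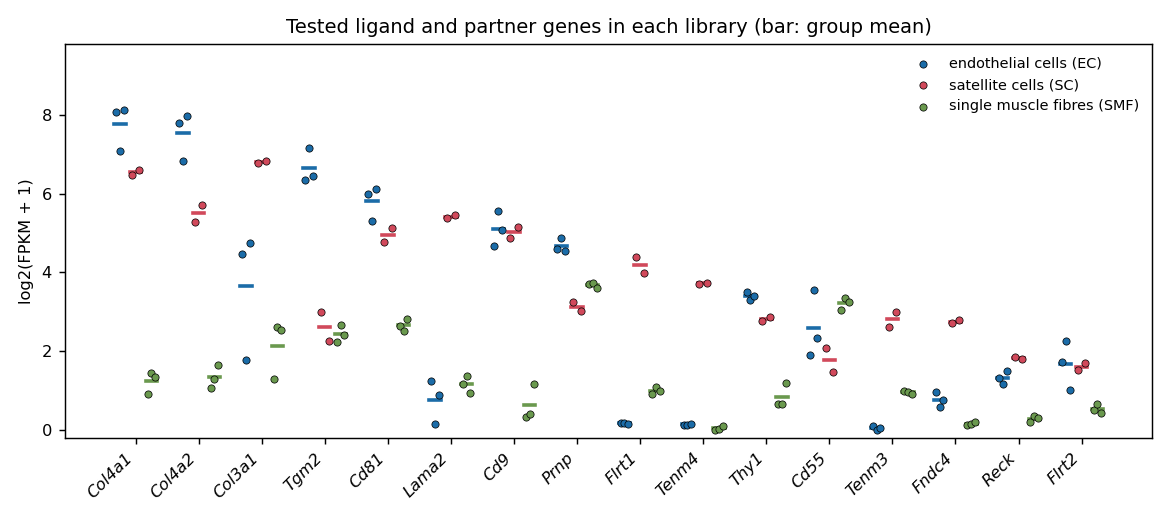
Level of the 16 tested ligand and partner genes in each library as log2(FPKM + 1), with a point for each library and a bar at the group mean. Col4a1, Col4a2 and Tgm2 are highest in EC, Col3a1, Lama2, Flrt1, Tenm4, Tenm3 and Fndc4 in SC, and Cd55 has its highest group mean in SMF.

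The G proteins and effectors through which adhesion receptors signal were tested in 19 of 20 cases. Between SC and EC, 3 were higher in SC, 7 higher in EC and 9 not called (median log2 difference -0.28), against 21.2% and 16.4% of all tested genes. Gnai2, an inhibitory alpha subunit, led the EC side at 136 ± 7.19 FPKM (n = 3) against 49.2 ± 2.93 (SD, n = 2; -1.45, SE 0.21, limma adjusted p = 0.00118). Dock1 and Elmo1, the exchange factor pair that Adgrb1 uses to activate Rac, were also higher in EC: Dock1 at 32.8 ± 4.05 against 9.58 ± 1.84 FPKM (-1.68, adjusted p = 0.000282) and Elmo1 at 7.53 ± 0.900 against 0.885 ± 0.441 (-2.19, adjusted p = 7.66e-05). Rac1 itself was at 45.1 ± 3.45 FPKM in EC and 22.7 ± 1.80 in SC (-0.96, adjusted p = 0.00218), and Arhgef12 at 41.4 ± 3.81 and 24.7 ± 0.714 (-0.72, adjusted p = 0.0139).

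Gnas, the stimulatory alpha subunit, led the SC side at 112 ± 16.1 FPKM against 43.2 ± 4.58 in EC (1.35, SE 0.19, limma adjusted p = 0.00104), followed by Gna13 at 16.2 ± 2.87 against 10.0 ± 0.360 (0.63, adjusted p = 0.0191). Gnao1 was higher in SC at 3.58 ± 0.0939 against 0.461 ± 0.104 (1.65, adjusted p = 0.000119). Relative to SMF, 19 effectors were higher in SC and 18 in EC, against 56.5% and 55.5% of all tested genes. The count lower was 0 for both, also at an unadjusted p under 0.05 in limma. Under median-of-ratios scaling 12 and 15 were called higher, and 1 and 3 lower. All tested genes called under that scaling numbered 4583 and 5356 of 16700 higher, and 3735 and 4116 lower.

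The authors' deposited table of TPM (transcripts scaled to a fixed total) gave a second measure of level. There Adgrf5 averaged 259 ± 31.7 TPM and Adgrl4 200 ± 38.7 TPM in EC (SD, n = 3), a ratio of 1.30 where the FPKM means give 2.94. Adgrl2 and Adgre5 changed places between the tables, with a ratio of EC means of 0.696 in FPKM and 1.15 in TPM. The SC leaders kept their order in TPM, with Adgre5 at 31.0 ± 6.83, Adgra3 at 19.3 ± 4.98 and Adgra2 at 9.47 ± 3.997 TPM (SD, n = 2). In the authors' deposited table, the EC specificity score of Adgrl4 (2.082) ranked 2 among 46435 loci and that of Adgrf5 (1.994) ranked 6, followed in the family by Adgrg1 (1.507, rank 61) and Adgrl2 (0.801, rank 413). The authors' deposited table gave the highest SC scores of the family to Adgra3 (0.780, rank 222) and Adgra2 (0.553, rank 663).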

How the data were processed

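The deposited files hold RNA-seq values of 8 libraries (EC, n = 3, SC, n = 2, SMF, n = 3), grouped by sample title. Per the labels, stranded libraries were made with random primers from 10 ng of RNA with 50 bp paired reads and an expected 20 M reads each. The submitters' processing notes name HISAT2 and StringTie, besides FastQC, Trimmomatic and bedtools, and the build mm10. No version was given in the sources used here, nor whether counting used strand, so reads of overlapping or antisense genes may be mixed. The authors deposited FPKM for each gene, FPKM and coverage for each transcript, and TPM with a specificity score (formula not stated) for each locus. No counts were used.

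The test was limma 3.58.1 in R 4.3.3 on log2(FPKM + 1) with its mean-variance trend, a mean for each group and all 8 libraries in 1 model, for the 16700 genes that reached 1 FPKM in 2 or more libraries, two-sided, Benjamini-Hochberg adjusted. Differences on this scale understate changes of low genes. The calculation was tested on simulated data. The members, gene lists, motifs and alternatives were chosen with earlier results of these data known. All members are named, with full values for those with a mean of at least 1 in a group. Listed partners and effectors are named if they were the most abundant called ones of a direction or pair with a member of at least 5 FPKM, and Flrt2, Gnao1, Elmo1 and the Wnt7 genes were chosen after their values were seen. Promoter sequences and gene positions are from RefSeq on GRCm38.p6, where 19 of 26 members matched a promoter window. Alternatives were 3 other scalings, another pseudocount, other filters, no trend, only the groups compared, a replicate block, the TPM table, a stricter threshold and leaving out each library.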

Additional observations from a re-analysis of the deposited data

How the results depend on the processing

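Of 22 called differences of tested members, 18 kept their direction and call under all of up to 18 alternatives. These 18 include calls of Adgrg1, Adgrg3, Adgrg6 and Adgrl4 as higher in EC. Those members passed the filter through EC, so that these calls were kept is no independent support. Those that did not were Adgrl4 and Adgrl2 for SC against SMF, Adgra3 for EC against SMF and Adgrg6 for SC against EC (adjusted p 0.0264 to 0.224, limma). Members called higher in SC than in SMF numbered 3 under median-of-ratios, 3 under upper-quartile and 3 under abundant-gene-free scaling, with 1, 1 and 0 higher in SMF, and 1 was higher in SMF than in EC under each. In the same order, 4583, 5738 and 5863 of all 16700 tested genes were called higher in SC than in SMF. Higher in SMF were 3735, 3089 and 2611 against SC, and 4116, 3782 and 2697 against EC. Without a filter on low values, 4 of the 26 members were higher in SC than in EC and 8 higher in SC than in SMF. Of all 36048 genes in that fit, 3897 and 10777 were called in these directions. With an EC or SMF library left out, 2 to 3 members were higher in SC and 5 to 6 higher in EC (SC against EC). All tested genes called were then 3169 to 3427 and 2425 to 3026. For SC against SMF the members were 4 to 5 and 0, with 8509 to 9848 and 1281 to 1482 of all tested genes. For EC against SMF they were 9 and 0 to 1, with 8348 to 9664 and 1633 to 1750 of all tested genes. The 1 arose without EC replicate 3. Leaving out an SC library leaves 1, assumed to vary like the other groups, so those counts are not given. Differences that turned were Adgre5 between SC and EC (-0.0235, abundant-gene-free) and, between SC and SMF, Adgrl1 (-0.96 median-of-ratios, -0.74 upper-quartile, -0.59 abundant-gene-free, and -0.0373 without SMF replicate 3, to 0.212 without SMF replicate 2), Adgrg1 (-0.0068 median-of-ratios), Adgrl4 (-0.0721 median-of-ratios) and Adgrf5 (-0.40 median-of-ratios, -0.20 upper-quartile, -0.0811 abundant-gene-free), and the cause was not tested. Adgrf5 was called for SC against SMF without SC replicate 3 (0.99, adjusted p = 0.00757). Whether replicate numbers pair the samples is not known. Correlations of deviations were -0.058 to 0.091 over 7 same-numbered pairs. These cannot decide it, since the deviations of the 2 SC libraries mirror each other. With the replicate block, 2 members were higher in SC and 5 in EC, 4 higher in SC than in SMF and 9 higher in EC than in SMF. In the same order, 3040, 2475, 8884 and 9236 of all 16700 tested genes were called. At these depths members under 1 FPKM rest on few fragments, and a listed 0 does not show absence.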

Other observations

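The TPM table held 28 loci named by the same pattern, 2 more than the gene table. The added loci, Adgrg7 and Adgrd2-ps, were listed at 0 in all 8 libraries.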
